A study of Mus musculus with 6 samples.

Results

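Arginine and polyamine metabolism was followed through 8 genes chosen by name in mouse lung: the arginine transporter Slc7a2, the arginases Arg1 and Arg2, the inducible nitric oxide synthase Nos2, the arginine-making enzymes Ass1 and Asl, and the polyamine enzymes Odc1 and Sat1. All 8 have a row among the 23238 gene symbols of the deposited read counts. Lungs came from wild-type mice given PM or the vehicle phosphate-buffered saline (PBS), both by the route abbreviated i.t. in the labels. The labels do not spell out PM and give no dose, duration, strain or age, and the series title calls the exposure chronic. There were 3 PM and 3 PBS samples, but the tables of PBS replicates 1 and 2 are identical in all 23282 entries and were counted as 1 sample, which leaves 3 PM and 2 PBS libraries. The labels do not tie the samples to separate mice, so each p-value reflects no more than the spread of these libraries, which may be technical.

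Arginine enters cells through cationic amino acid transporters and is used by competing enzymes. Nitric oxide synthases turn it into nitric oxide and citrulline, and arginases split it into urea and ornithine. Citrulline can be rebuilt into arginine by argininosuccinate synthase (Ass1) and argininosuccinate lyase (Asl), and ornithine is turned into putrescine, the first polyamine, by ornithine decarboxylase (Odc1). Spermidine and spermine are acetylated for export or breakdown by spermidine/spermine acetyltransferase (Sat1). In mouse macrophages Arg1 is a textbook target of interleukin-4 and interleukin-13, and Nos2 of interferon-gamma and microbial products.

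Total counts ran from 7410200 to 8798953 in the PM libraries and were 8827202 and 7660937 in the PBS libraries. At these depths 3 counts, the limit that a count of 0 allows, correspond to 0.340 to 0.405 CPM, a limit for counting error only; elsewhere CPM is the count as a rate per common library size, scaled to the library total and its TMM factor. The ribosomal RNA precursor Rn45s took 15.7% to 25.4% of counts in PM and 16.3% to 18.2% in PBS. The alveolar type 2 cell markers Sftpc and Sftpb were abundant in every library, with Sftpc at 9232 to 12218 CPM in PM and at 9540 and 11299 CPM in PBS, which fits the labelled tissue.

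Slc7a2 and Sat1 had higher values in every PM library than in either PBS library, whereas Arg2, Asl and Odc1 had log2 folds of -0.03, -0.01 and 0.03. None of the 7 members with enough counts to be tested passed the quasi-likelihood test of edgeR, for which an adjusted p below 0.05 (Benjamini-Hochberg, over 14057 genes) was required. Of all those genes 0.228% passed, 0.142% as higher and 0.0854% as lower in PM. Adjusted p-values below are from that test unless another tool is named. DESeq2 called 1 of the 7, Slc7a2, where it called 2.72% of all genes, and limma-voom called 0, where it called 0.121%. At an unadjusted p below 0.05, Slc7a2 and Sat1 were higher (2 of 7, against 7.26% of all tested genes) and 0 of 7 were lower (6.05% of all). The same 2 members had all PM libraries above all PBS libraries, as had 15.5% of tested genes, and none had all PM libraries below, as had 16.1%. The median log2 fold over the 7 members was 0.03, and over all tested genes it was 0.01. The eighth member, Ass1, had too few counts for a test.

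**Figure D1:**
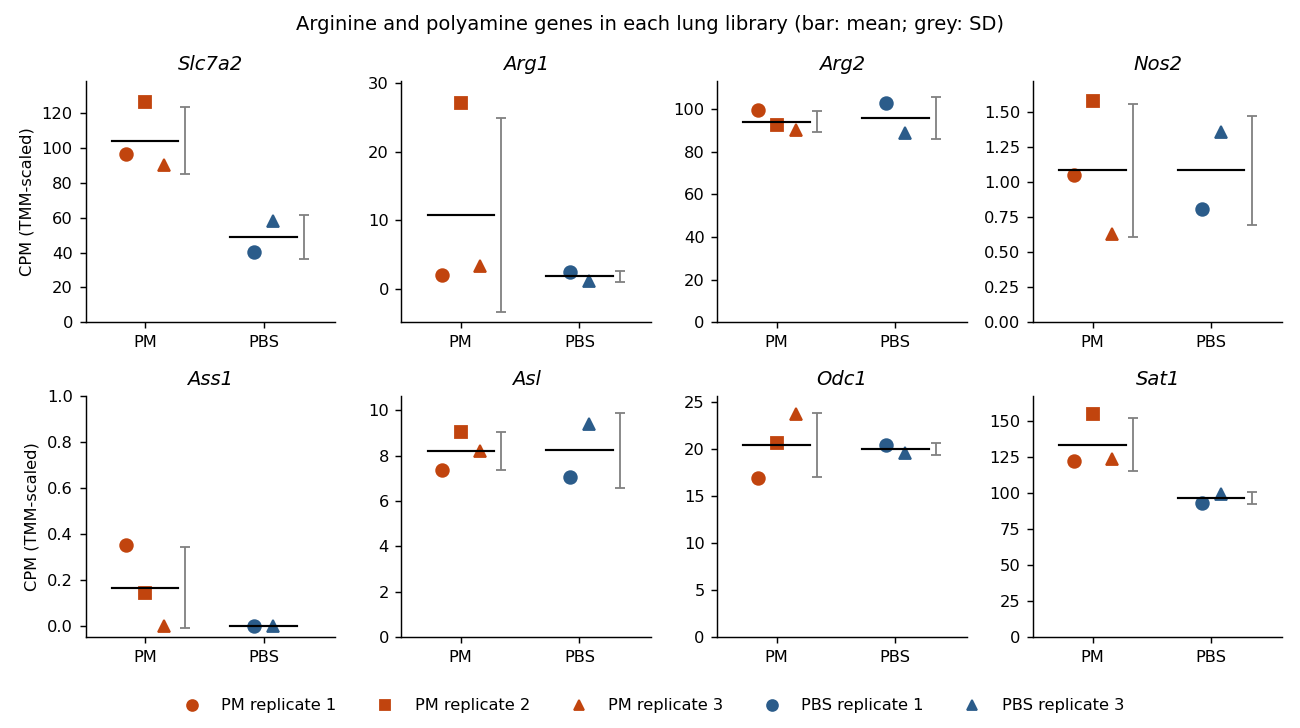
TMM-scaled CPM (y axis, linear, a separate scale for each gene) of the 8 genes in the 3 PM and 2 PBS libraries, 1 symbol a library, with the group mean as a black bar and the SD in grey. Slc7a2 and Sat1 have all PM symbols above all PBS symbols, and Arg1 stands out in PM replicate 2 at 27.1 CPM.

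Per kilobase of exon, the unit in which genes can be compared, Sat1 and Arg2 were the most abundant of the 8 and Nos2 the least but for Ass1. The place of Ass1 is not established, since how reads that also match its near-identical pseudogene, described with Ass1, were counted is unknown. In PM, mean levels were 113 CPM per kilobase for Sat1, 65.9 for Arg2, 12.0 for Slc7a2, 9.25 for Odc1, 7.30 for Arg1, 2.75 for Asl, 0.253 for Nos2 and 0.0971 for Ass1. In PBS, they were 81.3 CPM per kilobase for Sat1, 67.2 for Arg2, 5.66 for Slc7a2, 9.04 for Odc1, 1.24 for Arg1, 2.76 for Asl, 0.253 for Nos2 and 0 counted for Ass1. Slc7a2 thus stood above Odc1 in the PM means and below it in the PBS means. In PM the libraries of these 2 genes overlapped, and in PBS they did not. The place of Odc1 also depends on how reads that match its many near copies were counted, which is unknown. Arg1 spread from 1.35 to 18.3 CPM per kilobase over the PM libraries, so its place among Slc7a2, Odc1 and Asl is not fixed there.

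Slc7a2, a transporter of arginine, lysine and ornithine that lies on chromosome 8 at 40862341 to 40922070 (GRCm38), was about 2-fold higher in PM lung. It was counted 824, 879 and 716 times in PM replicates 1, 2 and 3, and 347 and 469 times in PBS replicates 1 and 3. Scaled for depth, this is 96.3, 126 and 90.3 CPM in PM against 40.2 and 57.9 CPM in PBS. Every PM library was above both PBS libraries, and the lowest PM level exceeded the highest PBS level. The means were 104 ± 19.1 CPM in PM and 49.1 ± 12.5 CPM in PBS (SD, n = 3 and 2). The log2 fold was 1.09 ± 0.19 SE, and the edgeR adjusted p of 0.0530 lay just outside the threshold.

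The side of the threshold on which Slc7a2 fell depended on the settings, while the direction did not. Its log2 fold ran from 0.85 to 1.37 over 14 alternatives, and 7 of them put its adjusted p below 0.05. In DESeq2 the adjusted p was 0.000122, in limma-voom 0.0900. In edgeR the adjusted p was 0.121 without PM replicate 1, 0.0366 without PM replicate 2 and 0.0221 without PM replicate 3. Leaving out a PBS library leaves only 1, and the log2 fold was then 0.85 without PBS replicate 1 and 1.37 without PBS replicate 3. Slc7a2 shares 162 of its 8662 exonic bases with Gm26584, a non-coding RNA gene on the opposite strand.

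**Figure D2:**
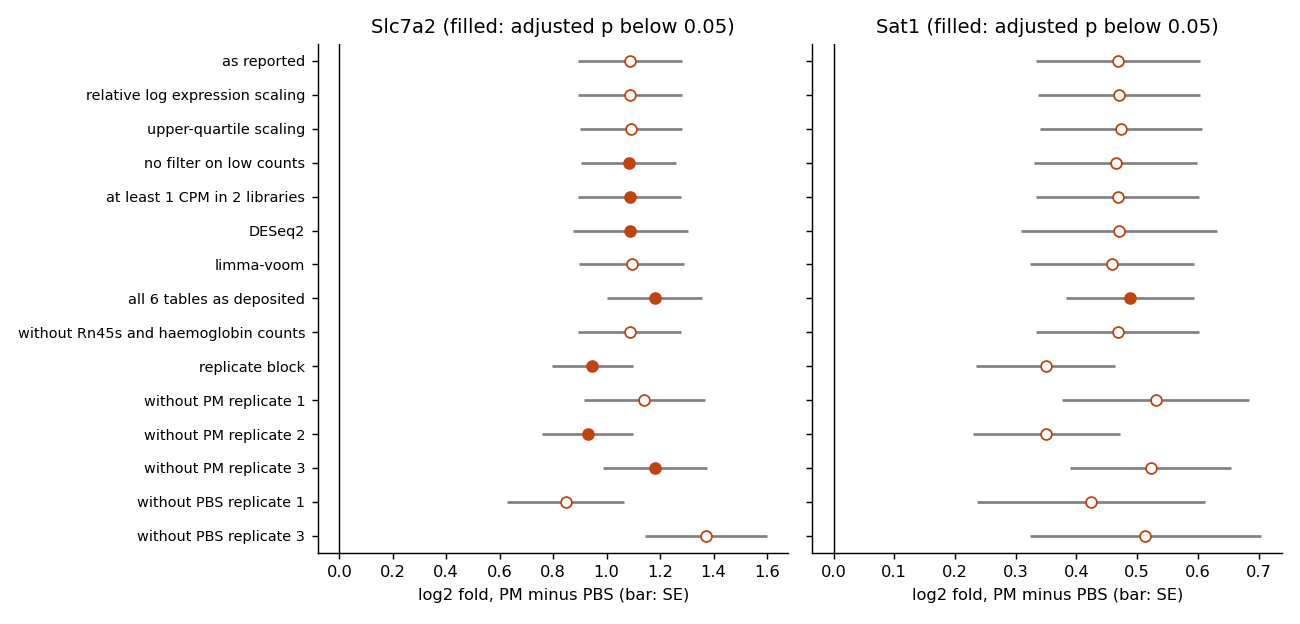
Log2 fold (PM minus PBS, x axis) with its SE for Slc7a2 and Sat1 as reported and under each of 14 other settings (y axis); filled symbols have an adjusted p below 0.05. All values are above 0, from 0.85 to 1.37 for Slc7a2 and from 0.35 to 0.53 for Sat1.

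The 3 genes with the profile nearest to that of Slc7a2 over the 5 libraries, by Euclidean distance of log2(CPM + 0.5) less each gene's own PBS mean, among 13199 genes, were Mpeg1, Tbxas1 and Spata18. Mpeg1, a perforin-like protein of macrophages, had a distance of 0.106. It stood at 91.2, 120 and 87.1 CPM in PM and at 36.6 and 58.4 CPM in PBS. Tbxas1 (thromboxane synthase) had a distance of 0.138, and Spata18, a protein of mitochondrial quality control, 0.155. All 3 had every PM library above both PBS libraries, which follows from choosing them for their likeness to Slc7a2 over these libraries.

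Several macrophage markers had higher values in PM along with Slc7a2. Of the 10 markers of monocyte-derived and interstitial macrophages, 8 had all PM libraries above all PBS libraries, as had 15.5% of all tested genes. Ccr2, a chemokine receptor of recruited monocytes, was the 1 that passed edgeR's test, and Csf1r and Cx3cr1 overlapped with log2 folds of -0.15 and -0.10. None of the 10 was at 0, and their summed level was 462 to 808 CPM in PM and 360 and 361 CPM in PBS. Of the 9 alveolar and alternatively activated macrophage markers with a row, 5 were above without overlap, 0 passed and none was at 0. Marco, Siglecf, Car4 and Pparg overlapped. The sums were 2264 to 6854 CPM in PM and 388 and 606 CPM in PBS. A few genes set these sums: Retnla held 5323 CPM in PM replicate 2, and Car4 held 225 and 283 CPM in PBS. In bulk tissue, more cells of a type and more RNA per cell cannot be told apart. The part of these markers in the Slc7a2 values was not tested. Alveolar type 2 cell markers summed to 14710 to 18120 CPM in PM and to 17490 and 14460 CPM in PBS.

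Of 8 genes listed for transport, 6 were tested and 0 passed edgeR's test. When p was left unadjusted (below 0.05), 1 was higher and 0 lower, against 7.26% and 6.05% of all tested genes. The gene that was higher is Slc7a6, a light chain of the transporters that exchange cationic for neutral amino acids. It stood at 8.88, 7.31 and 6.68 CPM in PM and at 5.33 and 1.85 CPM in PBS, without overlap. Its log2 fold was 1.08 ± 0.43 SE (edgeR adjusted p = 0.307), and it was 2.04 without PBS replicate 1 and 0.52 without PBS replicate 3. Slc7a1, the widespread cationic transporter, had 26.4, 31.2 and 17.0 CPM in PM and 22.3 and 19.1 CPM in PBS, and its groups overlapped (log2 fold 0.26 ± 0.24 SE). The shared heavy chain Slc3a2 overlapped too, at 174 to 273 CPM in PM and at 203 and 257 CPM in PBS. Slc7a3 was too low to test, with 12, 8 and 5 counts in PM and 2 and 2 in PBS, and so was the mitochondrial carrier Slc25a2, with 4, 0 and 2 counts in PM and 5 and 1 in PBS.

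Arg1, the cytosolic arginase, was high in a single PM library. It lies on chromosome 10 at 24915207 to 24927470, and it was counted 17, 189 and 26 times in PM replicates 1, 2 and 3, against 21 and 10 times in PBS replicates 1 and 3. In CPM this is 1.99, 27.1 and 3.28 in PM, against 2.43 and 1.23 in PBS. PM replicate 2 stood 8.26-fold above the next PM library, and PM replicate 1 lay between the PBS libraries. The log2 fold of 2.52 ± 1.62 SE did not pass (edgeR adjusted p = 0.600). Without PM replicate 2 the log2 fold was 0.51 ± 0.59 SE (edgeR adjusted p = 0.813), so the fold over all libraries rests on that library.

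The genes with the profile nearest to that of Arg1 were chosen for that likeness, so their peak in PM replicate 2 follows from the choice. They were Cxcl9, a chemokine induced by interferon-gamma (distance 0.881), Siglec1, a sialic acid receptor of macrophages (1.15), and Gbp10, a guanylate-binding protein (1.19). Cxcl9 stood at 2.22, 25.4 and 1.89 CPM in PM and at 1.51 and 0.617 CPM in PBS. Siglec1 reached 9.46 CPM and Gbp10 7.88 CPM in PM replicate 2, and every other library of both genes was at or below 2.27 CPM. At these low levels few counts set a profile: Arg1 had 263 counts in all 5 libraries together.

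**Figure D3:**
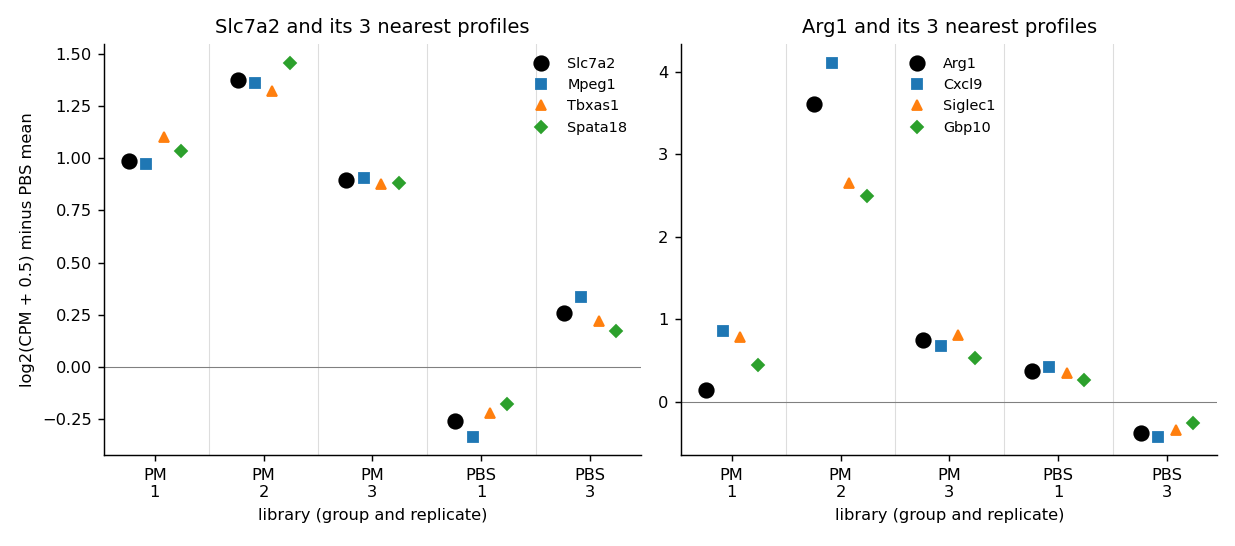
Log2(CPM + 0.5) minus the mean of the PBS libraries (y axis) in the 3 PM and 2 PBS libraries (x axis) for Slc7a2 (left) and Arg1 (right), each with its 3 nearest genes. Slc7a2 and its neighbours are above the PBS libraries in every PM library, whereas Arg1 and its neighbours are highest in PM replicate 2. The neighbours were chosen for their likeness over these libraries.

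Il4, Il13 and Ifng, cytokines that induce Arg1 or Nos2, were at or near the counting limit. Il4 had 1, 0 and 0 counts in PM and 0 and 2 in PBS, and Il13 had 0, 1 and 0 in PM and 0 and 0 in PBS. Ifng had 0, 6 and 1 counts in PM and 0 and 0 in PBS, and the 6 belong to PM replicate 2. Of 7 tested genes in the list of inducers, their receptors and their signalling factors, 0 passed edgeR's test, DESeq2 or limma-voom. Before adjustment, edgeR's p was below 0.05 for 1 higher and 1 lower gene, against 7.26% and 6.05% of all tested genes. Without PM replicate 2 the numbers were 0 higher and 1 lower. The higher gene was Il13ra1, a receptor chain for interleukin-13 and interleukin-4, with 25.7, 34.8 and 21.4 CPM in PM and 18.4 and 19.1 CPM in PBS (log2 fold 0.54 ± 0.22 SE, edgeR adjusted p = 0.310; 0.33 without PM replicate 2). The lower one was Il4ra, the chain shared by both receptors, with 114, 101 and 123 CPM in PM and 144 and 141 CPM in PBS (log2 fold -0.34 ± 0.12 SE, edgeR adjusted p = 0.236).

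Irf1, a transcription factor of the interferon response, had its highest value in the library that was high in Arg1. It stood at 211, 340 and 202 CPM in PM and at 182 and 222 CPM in PBS. Stat6, which acts downstream of interleukin-4, had 71.3, 61.8 and 55.1 CPM in PM and 66.3 and 72.9 CPM in PBS, with overlap. Tnf was low but did not overlap, at 1.99, 2.15 and 2.02 CPM in PM and at 0.927 and 0.617 CPM in PBS (log2 fold 1.39 ± 0.64 SE, edgeR adjusted p = 0.384). Il1b was highest in PM replicate 3, at 18.6, 18.6 and 58.4 CPM in PM, against 20.6 and 8.89 CPM in PBS.

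Retnla and Chil3, which share the induction by interleukin-4 with Arg1, did not follow its pattern in every library. Retnla stood at 1016, 5323 and 1222 CPM in PM and at 34.1 and 13.5 CPM in PBS, and Chil3 at 591, 1014 and 453 CPM in PM and at 18.2 and 127 CPM in PBS. Both were highest in PM replicate 2, as Arg1 was, but both were also above PBS in PM replicates 1 and 3, where Arg1 was at 1.99 and 3.28 CPM. Arg1 is also a major liver enzyme, and liver markers were low in every library. The list of 6 summed to 2.72 to 10.2 CPM in PM and to 3.36 and 2.96 CPM in PBS. Apoa2 was at 0 in all libraries and Alb had at most 4 counts. Cyp2e1 made up most of each sum, with 7.83, 2.15 and 10.1 CPM in PM and 2.78 and 2.59 CPM in PBS. Its log2 fold was 1.32 ± 0.58 SE (edgeR adjusted p = 0.361), with overlap. The part of liver in the Arg1 values was not tested.

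Arg2, the mitochondrial arginase, was abundant and nearly equal in both groups. It had 99.7, 92.4 and 90.2 CPM in PM and 103 and 88.9 CPM in PBS, so the groups overlapped. The log2 fold was -0.03 ± 0.12 SE (edgeR adjusted p = 0.953), and an interval of 2 standard errors each way runs from -0.27 to 0.21. Arg2 lies on chromosome 12 at 79130788 to 79156301. Of its 1428 exonic bases 285 are shared with Vti1b on the opposite strand, which had 841 to 1078 counts in PM and 1090 and 947 in PBS, and whether strand was used in counting is unknown.

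The ratio between both arginases within a library was highest in PM replicate 2. The log2 ratio of Arg1 to Arg2 counts was -5.61, -1.77 and -4.75 in PM and -5.37 and -6.10 in PBS, with means of -4.04 ± 2.02 in PM and -5.73 ± 0.52 in PBS (SD, n = 3 and 2). The difference of 1.69 had an exact permutation p of 0.400 (two-sided), where 10 arrangements of the libraries allow no p below 0.200. Without PM replicate 2 the difference was 0.55.

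Nos2, which makes nitric oxide in activated macrophages and epithelium, was close to the counting limit in both groups. It lies on chromosome 11 at 78920787 to 78960226. It was counted 9, 11 and 5 times in PM and 7 and 11 times in PBS, or 1.05, 1.58 and 0.631 CPM in PM and 0.811 and 1.36 CPM in PBS. The groups overlapped, and the log2 fold was -0.01 ± 0.72 SE (edgeR adjusted p = 0.998). An interval of 2 standard errors each way runs from -1.45 to 1.44, which includes a 2-fold difference in either direction. The genes nearest to it in profile were Hdac9, Apobec3 and Chadl, at distances of 0.102, 0.123 and 0.132. Their groups overlapped as well, which follows from choosing them by profile.

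The ratio of Arg1 to Nos2, whose enzymes compete for arginine, overlapped between the groups. The log2 ratio of Arg1 to Nos2 counts was 0.88, 4.04 and 2.27 in PM and 1.52 and -0.13 in PBS. The means were 2.40 ± 1.58 in PM and 0.69 ± 1.17 in PBS (SD, n = 3 and 2), and their difference of 1.70 had an exact permutation p of 0.400 (two-sided). Since 10 arrangements of the libraries allow no p below 0.200, the test could not have called a difference. The difference between the means was 0.88 when PM replicate 2 was left out.

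Among the other genes of nitric oxide synthesis, 2 were lower in PM at p below 0.05 before adjustment. Of 11 listed, 10 were tested and 0 passed edgeR's test. Before adjustment 0 were higher and 2 lower, against 7.26% and 6.05% of all tested genes. Nostrin, which binds the endothelial nitric oxide synthase and moves it away from the cell membrane, had 43.6, 41.8 and 49.8 CPM in PM and 67.1 and 78.4 CPM in PBS. Its log2 fold was -0.69 ± 0.14 SE (edgeR adjusted p = 0.0592). DESeq2 called it lower (adjusted p = 0.00673), and so did edgeR with no filter on low counts (adjusted p = 0.0114) and without PM replicate 3 (0.0201). With all 6 tables the edgeR adjusted p was 0.0222. That fit enters an identical PBS table as a separate sample, so its p-value is not reliable. The log2 fold of Nostrin was -0.80 without PBS replicate 1 and -0.57 without PBS replicate 3. Ddah2, of the family of enzymes that clear methylated arginines, had 59.8, 57.6 and 57.4 CPM in PM and 75.7 and 70.1 CPM in PBS (log2 fold -0.32 ± 0.12 SE, edgeR adjusted p = 0.268). Both had all PM libraries below all PBS libraries.

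Some endothelial markers had lower values along with Nostrin, though 0 of 6 passed edgeR's test. Of the 6, 4 (Pecam1, Cdh5, Tek and Kdr) had all PM libraries below all PBS libraries, as had 16.1% of all tested genes. Cldn5 and Vwf overlapped, with log2 folds of 0.02 and 0.25. None of the 6 was at 0, and the sum of the 6 was 1230 to 1415 CPM in PM and 1608 and 1705 CPM in PBS. The part of these markers in the values of Nostrin was not tested. Nos3, the endothelial synthase itself, pointed the other way, with 6.55, 5.88 and 6.68 CPM in PM and 3.01 and 5.31 CPM in PBS (log2 fold 0.62 ± 0.36 SE, edgeR adjusted p = 0.504). Gch1, the rate-limiting enzyme of the cofactor tetrahydrobiopterin, overlapped between groups at 11.7, 16.9 and 17.3 CPM in PM and 10.3 and 12.8 CPM in PBS. Nos1, the neuronal synthase, had 1, 1 and 2 counts in PM and 1 and 1 in PBS.

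Ass1 had almost no counts, although its partner Asl was counted in every library. Ass1, on chromosome 2 at 31470270 to 31520670, had 3, 1 and 0 counts in PM and 0 and 0 in PBS, all at or below the limit that a count of 0 allows, so no fold is given. More counts were held by Gm5424, a processed pseudogene of Ass1 on chromosome 10 at 62071022 to 62072571. This gene was chosen after the counts of Ass1 were seen. Over the 1239 bases of the Ass1 coding sequence, the transcripts of both genes in GENCODE M21 differ at 6 positions and are 99.5% identical. Of the 1190 windows of 50 bases in that sequence, 910 (76.5%) occur letter for letter in Gm5424, and the longest identical run is 398 bases.

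The row of Gm5424 held 69, 98 and 46 counts in PM and 50 and 42 counts in PBS. In CPM this is 8.06, 14.0 and 5.80 in PM and 5.79 and 5.19 in PBS, with PM replicate 3 barely above PBS replicate 1. The log2 fold was 0.75 ± 0.38 SE (edgeR adjusted p = 0.432), and 0.34 without PM replicate 2. How reads that match both Ass1 and Gm5424 were counted is unknown, so the level of Ass1 in these lungs is uncertain.

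Asl, which completes arginine synthesis, lies on chromosome 5 at 130011258 to 130024381 and was close to equal in both groups. It had 63, 63 and 65 counts in PM and 61 and 76 in PBS, or 7.36, 9.03 and 8.20 CPM in PM and 7.07 and 9.38 CPM in PBS. The groups overlapped, with a log2 fold of -0.01 ± 0.28 SE (edgeR adjusted p = 0.995) and an interval of 2 standard errors each way from -0.56 to 0.55.

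Other enzymes that use arginine, ornithine or proline numbered 13, of which 8 were tested and 0 passed edgeR's test. The p before adjustment was below 0.05 for 1 higher and 1 lower gene, against 7.26% and 6.05% of all tested genes. Gatm, which takes the amidino group of arginine in the first step of creatine synthesis, had 16.7, 35.1 and 16.1 CPM in PM and 8.69 and 9.26 CPM in PBS. All PM libraries were above PBS, and PM replicate 2 was the highest. Its log2 fold was 1.33 ± 0.36 SE (edgeR adjusted p = 0.158), with an adjusted p of 0.0163 in DESeq2, and 0.87 without PM replicate 2. Gamt, the second enzyme of that synthesis, pointed down, with 5.49, 5.73 and 6.05 CPM in PM and 10.1 and 6.67 CPM in PBS (log2 fold -0.54 ± 0.31 SE). Prodh (proline dehydrogenase) had 4.79, 5.30 and 4.04 CPM in PM and 7.65 and 8.64 CPM in PBS, without overlap (log2 fold -0.79 ± 0.31 SE, edgeR adjusted p = 0.299). Oat, which turns ornithine towards proline, overlapped at 89.2, 98.7 and 101 CPM in PM and 110 and 96.9 CPM in PBS.

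The urea cycle genes Cps1 and Otc, which are mainly liver and gut enzymes, were at or near 0. Cps1 had 0 counts in all 5 libraries, and Otc had 0, 1 and 5 counts in PM and 0 and 2 in PBS. The other untested genes of that list, Nags, Pycr1 and Agmat, had 8, 3 and 5 counts in all libraries together.

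Odc1, the entry enzyme of polyamine synthesis, was nearly equal in both groups. It lies on chromosome 12 at 17544808 to 17551502. It had 16.9, 20.6 and 23.7 CPM in PM and 20.4 and 19.5 CPM in PBS, so PM libraries lay on both sides of PBS. The log2 fold was 0.03 ± 0.20 SE (edgeR adjusted p = 0.968), with an interval of 2 standard errors each way from -0.36 to 0.42.

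Sat1, which acetylates spermidine and spermine, was higher in every PM library by a small amount. It lies on chromosome X at 155213126 to 155216449. It was counted 1043, 1078 and 977 times in PM and 804 times in each PBS library, or 122, 155 and 123 CPM in PM and 93.2 and 99.3 CPM in PBS. The means were 133 ± 18.5 CPM in PM and 96.2 ± 4.32 CPM in PBS (SD, n = 3 and 2). The log2 fold was 0.47 ± 0.13 SE, a 1.38-fold difference, which did not pass (edgeR adjusted p = 0.152). Without PM replicate 2 the log2 fold was 0.35.

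Odc1 counts stood lower against Sat1 counts in each PM library than in either PBS library. The log2 ratio of Odc1 to Sat1 counts was -2.84, -2.90 and -2.37 in PM and -2.19 and -2.34 in PBS. The means were -2.71 ± 0.29 in PM and -2.27 ± 0.11 in PBS (SD, n = 3 and 2). The difference of -0.44 had an exact permutation p of 0.200 (two-sided), the smallest that 10 arrangements allow. PM replicate 3 lay close to PBS replicate 3.

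Of 20 other genes of polyamine synthesis, control, turnover and use, 19 were tested and 0 passed edgeR's test. Unadjusted p was below 0.05 for 2 that were higher and 1 that was lower, against 7.26% and 6.05% of all tested genes. Srm (spermidine synthase) had 14.7, 18.6 and 12.5 CPM in PM and 7.53 and 12.1 CPM in PBS (log2 fold 0.64 ± 0.27 SE, edgeR adjusted p = 0.340), and its log2 fold was 0.33 without PBS replicate 1 and 1.02 without PBS replicate 3. Atp13a3, a polyamine transporter of endosomes, had 119, 113 and 148 CPM in PM and 95.7 and 101 CPM in PBS (log2 fold 0.36 ± 0.14 SE, edgeR adjusted p = 0.273; 0.24 without PM replicate 3). Both had all PM libraries above all PBS libraries. Mat2a, which makes the methyl donor S-adenosylmethionine from which the aminopropyl groups of polyamines derive, had 230, 267 and 297 CPM in PM and 311 and 355 CPM in PBS (log2 fold -0.33 ± 0.13 SE, edgeR adjusted p = 0.299). Its PM libraries were all below its PBS libraries.

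Oaz1, the antizyme that brings ornithine decarboxylase to degradation, also had few counts beside a pseudogene with more. It had 11, 8 and 11 counts in PM and 7 and 17 in PBS. Its processed pseudogene Oaz1-ps on chromosome 17, chosen after these values were seen, had 1245, 1014 and 1294 counts in PM and 1382 and 1369 in PBS. A stretch of 685 bases of the pseudogene is 99.7% identical to the Oaz1 transcript, which has 1044 bases. How reads that match both were counted is unknown, so the level of Oaz1 is uncertain too. Oaz1-ps had a log2 fold of -0.12 ± 0.11 SE (edgeR adjusted p = 0.695). The second antizyme, Oaz2, had 264, 268 and 189 CPM in PM and 286 and 250 CPM in PBS, with overlap. The third, Oaz3, was too low to test, with 1, 3 and 1 counts in PM and 0 and 2 in PBS.

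Over the 4 lists together, 43 of 52 genes were tested and 0 passed edgeR's test. At p below 0.05 before adjustment 4 were higher and 4 lower, against 7.26% and 6.05% of all tested genes. DESeq2 called 2 of the 43 (2.72% of all genes), Gatm and Nostrin, and limma-voom 0. The median log2 fold was -0.03, against 0.01 for all tested genes. All PM libraries were above all PBS libraries for 10 of the 43 and below them for 8, where 15.5% and 16.1% of all tested genes were. The 9 untested genes had 0 to 29 counts in all libraries together.

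**Figure D4:**
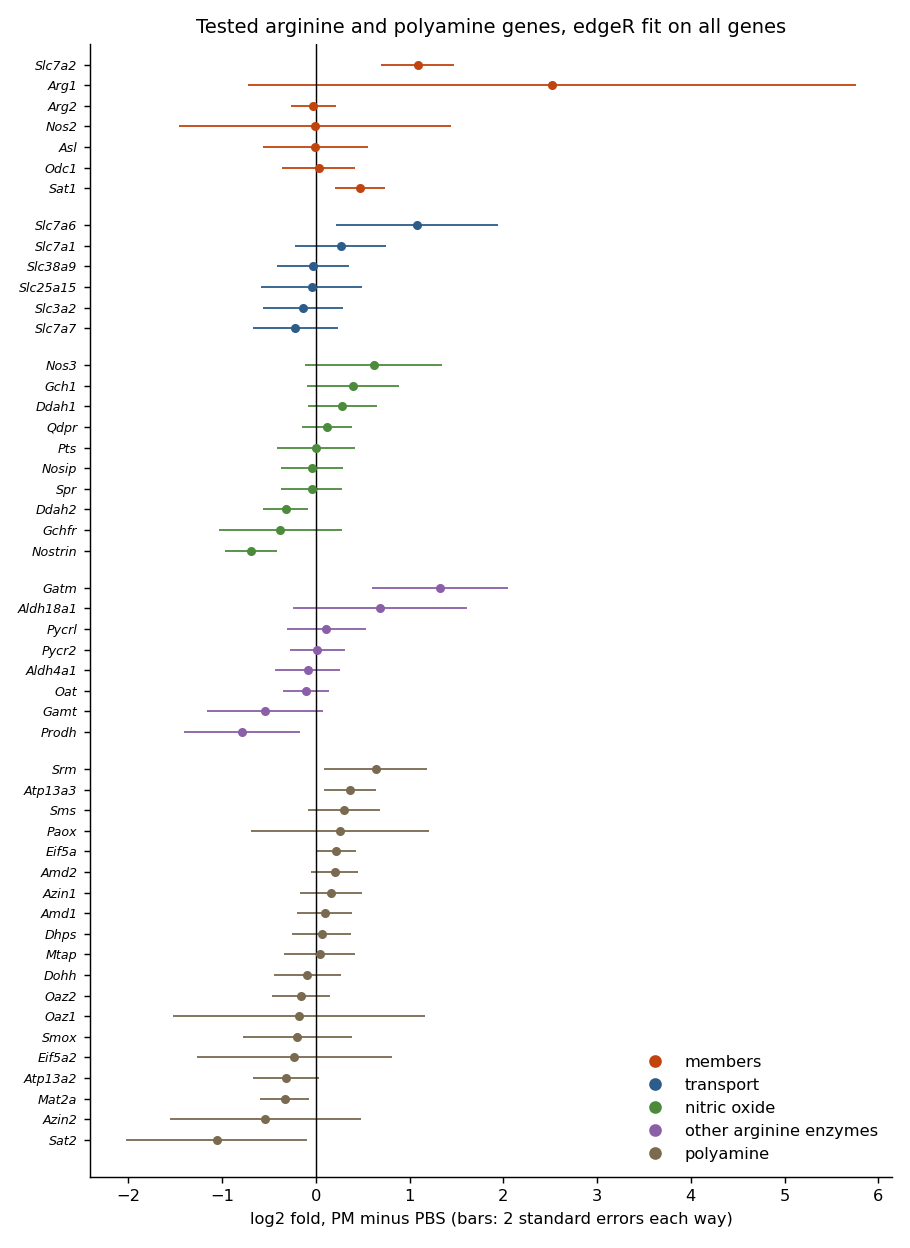
Log2 fold (PM minus PBS, x axis) of the 7 tested members and of the 43 other tested genes of the pathway, by list, with 2 standard errors each way; genes run down the y axis. Slc7a2 at 1.09 and Sat1 at 0.47 have bars clear of 0, Arg1 at 2.52 has the widest bar, and most other genes have bars that cross 0.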

How the data were processed

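Per the labels' protocols, RNA came from an easy-BLUE extraction and was turned into libraries by Lexogen's SENSE mRNA-Seq chemistry. Per the submitters' processing notes, TopHat, Cufflinks and mm10 were named, without versions or roles. For the counting program, annotation and strand, the sources used here give nothing. Each deposited table lists whole-number read counts by gene symbol, not normalized. Where symbols repeated (79 entries), the entry with most counts was kept, and 1 unnamed line was left out of each of 2 tables. edgeR 4.0.16 (R 4.3.3) was run on 5 libraries with filterByExpr, TMM scaling and robust quasi-likelihood fits; log2 folds are PM minus PBS, and SE is the fold over the square root of F. CPM was computed from the deposited counts and the TMM factors. Ratios used counts plus 0.5. Tested on simulated data for this comparison (14057 genes), 66 of 100 genes changed 2-fold and 94 of 100 changed 4-fold were recovered, and 24 of 184 calls were false. The changed genes were drawn only from genes above a minimum mean count, which Nos2 did not reach. These shares therefore do not hold for genes with low counts. Coordinates are RefSeq's for GRCm38, the assembly also called mm10; exon lengths and transcripts are GENCODE M21's, compared with blastn 2.17.0 (at least 100 bases at 80% identity). Alternatives used DESeq2 1.42.0, limma 3.58.1, other scalings and filters, and libraries left out. The members and lists were chosen with earlier results of these data known. Named genes were all members, and those of the pathway and inducer lists past an unadjusted p of 0.05 or too low to test; further genes of these lists were named after their values were seen. Nearest profiles were sought among tested genes averaging 1 CPM or more and not named as Gm or Rik models. Some items are not reported here.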

Additional observations from a re-analysis of the deposited data

How the results depend on the processing

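The number of genes called, 32 in the reported fit, was 275 with no filter on low counts, 81 with at least 1 CPM in 2 libraries, 382 with DESeq2, 17 with limma-voom, 635 with all 6 tables as deposited and 353 with the replicate number as a block. With 1 library left out it ran from 1 to 427: leaving out PM replicate 1, 2 or 3 gave 12, 106 or 427, and leaving out PBS replicate 1 or 3 gave 1 or 6. Slc7a2 passed the threshold with no filter (log2 fold 1.08), with at least 1 CPM in 2 libraries (1.09), with DESeq2 (1.09), with all 6 tables (1.18) and with the replicate block (0.95), and its fold was 0.85 to 1.37 with 1 library left out. Sat1 passed only with all 6 tables (0.49) and had 0.35 to 0.53 with 1 library left out. The fit with all 6 tables enters an identical PBS table as a separate sample. It therefore understates the spread, and its calls, for any gene, are not reliable. Folds near 0 changed sign with 1 library left out: Arg2 ran from -0.13 to 0.084, Nos2 from -0.33 to 0.40, Asl from -0.20 to 0.21 and Odc1 from -0.089 to 0.15. Asl was at 0.067 with all 6 tables and at 0.0015 with limma-voom. Arg1 kept its sign in all 14 alternatives (0.51 to 3.09), with 0.51 under the replicate block. The 3 ratios kept their sign in the 7 alternatives of each. The cause of these changes was not tested. Under the block edgeR also called Nostrin (adjusted p = 0.0169) and Gatm (0.0497), and with all 6 tables it called Gatm (0.0462). The block rests on replicate numbers 1 and 3 alone, as PM replicate 2 has no PBS library of its number. It is therefore close to the fit without PM replicate 2, which gave Arg1 a log2 fold of 0.51 as well. Deviations from the group means correlated at -0.03 for number 1 and 0.07 for number 3 across genes. With 2 PBS libraries the PBS deviations mirror each other, so these values cannot show whether samples of the same number belong together. Nos2 could not be tested without PM replicate 2 or with all 6 tables, where it failed the filter.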

Other observations

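Odc1 has many near copies. In GENCODE M21, 22 other genes hold at least 100 bases that are 80% or more identical to its transcript, 2 of them with a row here. AW146154, 92.2% identical over 913 bases, had 134, 75 and 155 counts in PM and 146 and 135 in PBS, of the same order as the 145, 144 and 188 counts of Odc1 in PM and 176 and 158 in PBS. Gm15645, 93.4% identical over 1307 bases, had 2 to 7 counts in PM and 4 and 5 in PBS. Sat1 has 2 such near copies, the closer 92.9% identical, and neither has a row here. How reads that match several of these genes were counted is not given in the sources used here.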
